A study of Mus musculus with 6 samples.

Results

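Mitochondrial ribosomal protein genes were followed in mouse neural stem progenitor cells given PTN. They were chosen by name, as every gene of the deposited table whose symbol is Mrpl or Mrps followed by a number and at most 1 letter. This gave 78 genes of 22322 in the table, 49 with a large-subunit symbol and 29 with a small-subunit symbol, and all 78 were among the 13161 genes tested. The cells were wild type (WT) in both groups, 3 libraries were made 24 h after PTN and 3 after PBS, the Control, and per the series title PTN was added to conditioned medium. PTN is given only as an abbreviation and is read here as pleiotrophin, a secreted heparin-binding growth factor. The sources used here give neither its amount nor the passage or origin of the cells. Whether replicates are separate cultures or animals is not in the labels, and the p-values therefore reflect the spread between these libraries alone, which may be technical.

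The mitochondrial ribosome translates the few messenger RNAs that mitochondrial DNA encodes, all of them for core subunits of the respiratory chain and ATP synthase. Its RNAs come from mitochondrial DNA, whereas every protein of its large and small subunits is encoded in the nucleus, made in the cytosol and imported. Neural stem cells rely strongly on glycolysis, and respiration gains weight as they differentiate.

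Most of the genes read lower in PTN libraries, but a single one, Mrpl36, passed the test. Of the 78 genes, 68 had a negative log2 fold change (PTN minus Control) and 10 a positive one, beside 47.5% negative over all genes tested. Their median log2 fold change was -0.27, where that of all tested genes was 0.03. With the trend on gene length removed, described further on, 55 were negative and the medians were -0.10 for the large and -0.04 for the small subunit. In edgeR's quasi-likelihood test, with adjusted p under 0.05 taken as a call, 1 of 78 was called lower and 0 were called higher, while 3.06% of all tested genes were called lower, 4.93% higher and 7.99% in either direction. The share of these genes that was called therefore lay below that of all genes. Without PTN 3 the test called 11, and without any other single library it called 0. Calls over all tested genes also moved with the library left out, over the range given in the last section. The 11 are therefore not read as particular to these genes. In 32 of the 78 every PTN library lay below every Control library, and in 0 did every PTN library lie above, against 17.1% and 15.7% of all tested genes. At an unadjusted p under 0.05 there were 20 lower and 1 higher, against 12.2% and 14.7% of all tested genes. The count of 20 moved with single libraries, to 11 without PTN 1, 4 without PTN 2, 39 without PTN 3 and 8 without Control 1, and to 7 with the length trend removed. Fewer cells of a type and less RNA per cell cannot be told apart in such bulk samples.

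Both subunits showed much the same picture. The 49 large-subunit symbols had a median log2 fold change of -0.28, with 43 negative, 6 positive and 22 whose groups did not overlap. The 29 small-subunit symbols had a median of -0.26, with 25 negative, 4 positive and 10 whose groups did not overlap. Genes without overlap, all lower in PTN libraries, made up 44.9% of the large and 34.5% of the small symbols. That share was 17.1% of all tested genes and 33.9% of all genes in the shortest eighth by length, described further on. The gene ontology terms of the table include the large subunit for Mrps18a and Mrps30, and structures of the ribosome also place them there. The small-subunit term stands with 27 of the 29 small-subunit symbols and only Mrps35 has neither term, so it is not absent from both genes. Mrps36 is now known as a component of the oxoglutarate dehydrogenase complex. With Mrps18a and Mrps30 counted as large and Mrps36 left out, the medians were -0.27 over 51 genes and -0.28 over 26 genes. Genes were also split by symbol number, numbers up to 36 (large) and 21 (small) being read as families shared with bacteria. Mrpl47, Mrpl55 and Mrps24 were added to these. The shared families had a median of -0.31 (40 negative of 47). The rest, Mrps36 among them, had a median of -0.26 (28 negative of 31).

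**Figure D1:**
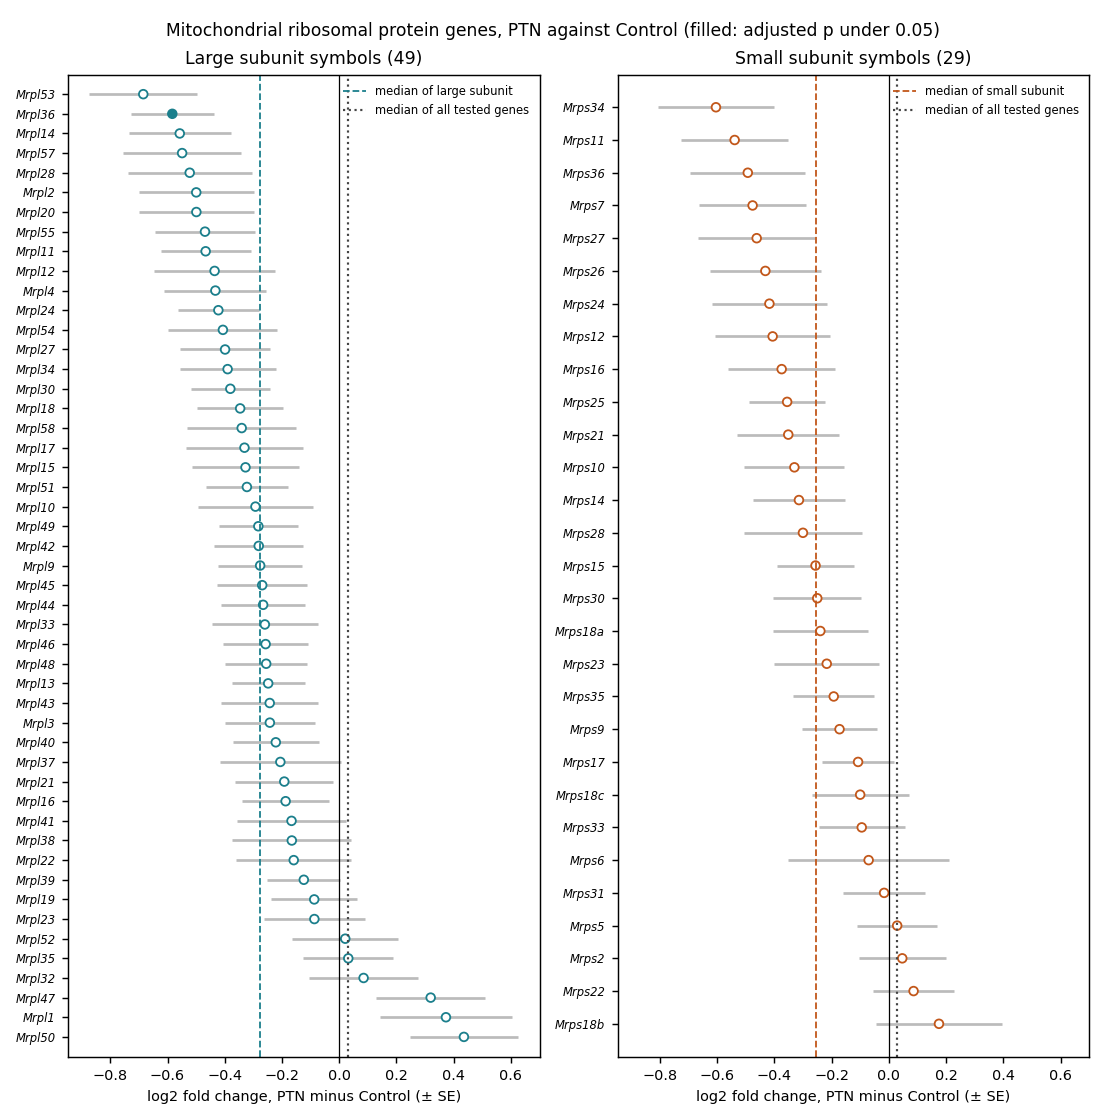
The log2 fold change (PTN minus Control) of each gene with its standard error, for large-subunit symbols on the left and small-subunit symbols on the right, in order of size. Most points lie left of 0, from -0.68 for Mrpl53 to 0.44 for Mrpl50, and the filled point, Mrpl36, is the only one with an adjusted p under 0.05.

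The upstream sequences of 4 genes are shown. They are those of Mrpl36, the only gene called, of Mrpl53 and Mrpl50, which had the lowest and the highest log2 fold change, and of Mrps11, the lowest small-subunit gene with a window. RefSeq promoter windows (GRCm38.p6) were matched by symbol for 69 of the 78 genes. Each sequence is the 150 bases before the annotated start, 5′ to 3′ on the gene's strand, with motif matches in capitals. The window of Mrpl36 lies at chr13:73330859-73331008 on the plus strand and holds an E-box, 43 bases before the start, and a reversed YY1 motif, 29 bases before it. That of Mrpl53 lies at chr6:83108958-83109107, plus strand, and holds an ETS motif, a CCAAT box and a reversed ETS motif in that order. That of Mrps11 lies at chr7:78782981-78783130, plus strand, and holds a reversed YY1 motif. That of Mrpl50 lies at chr4:49521084-49521233, minus strand, and holds a reversed CCAAT box.
Mrpl36: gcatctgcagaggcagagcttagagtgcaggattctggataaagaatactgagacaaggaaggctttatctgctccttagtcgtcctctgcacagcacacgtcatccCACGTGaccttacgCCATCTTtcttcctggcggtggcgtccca
Mrpl53: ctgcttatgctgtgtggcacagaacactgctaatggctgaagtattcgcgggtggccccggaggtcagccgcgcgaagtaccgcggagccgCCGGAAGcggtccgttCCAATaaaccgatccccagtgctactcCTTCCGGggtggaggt
Mrps11: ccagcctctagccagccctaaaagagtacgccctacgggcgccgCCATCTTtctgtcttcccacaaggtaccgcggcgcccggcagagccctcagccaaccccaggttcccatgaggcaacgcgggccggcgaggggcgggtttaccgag
Mrpl50: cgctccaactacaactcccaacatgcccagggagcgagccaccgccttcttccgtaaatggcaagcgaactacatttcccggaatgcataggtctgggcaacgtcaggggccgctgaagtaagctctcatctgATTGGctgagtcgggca

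Over the 250 bases before the start, on both strands, the ETS motif CCGGAAG, the core bound by GABP and related factors, stood in 18 of the 69 genes (26.1%) and in 7.83% of all 27025 genes with a window. The NRF1 motif GCATGCG stood in 8 of 69 (11.6%) and in 3.43% of all genes, and the YY1 motif AAGATGG in 6 of 69 (8.70%) and in 5.18% of all genes. GABP, NRF1 and YY1 are known regulators of nuclear genes for mitochondrial proteins. The E-box CACGTG, the site of MYC and related factors, stood in 5 of 69 (7.25%) and in 6.86% of all genes, and CCAAT in 25 of 69 (36.2%) and in 37.5% of all genes. The motifs searched do not overlap one another in the sequences shown, and a match describes letters, not a bound site.

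Mrpl36, the counterpart of one of the smallest proteins of the bacterial large subunit, was the gene that fell. It had 30.9, 27.3 and 34.5 CPM (counts scaled to a common library size) in PTN 1, PTN 2 and PTN 3, against 45.4, 45.8 and 47.6 CPM in Control 1, Control 2 and Control 3. The groups did not overlap, and the Control libraries lay close together. Its log2 fold change was -0.58 ± 0.14 (SE, adjusted p = 0.0441 in edgeR's quasi-likelihood test), a level 1.5-fold lower in PTN libraries. The call held without PTN 3 (adjusted p = 0.0254) and was lost without PTN 1 (0.118), PTN 2 (0.0866), Control 1 (0.0931), Control 2 (0.106) or Control 3 (0.148). Its log2 fold change was -0.34 with the trend on gene length removed, described with gene length further on, and the call was then lost as well (adjusted p = 0.149).

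Among the other large-subunit genes, Mrpl53, Mrpl14 and Mrpl24 came next by p and did not pass the test. Mrpl53, a protein found only in mitochondrial ribosomes, had 22.003, 19.2 and 28.7 CPM in the PTN libraries and 42.3, 36.3 and 33.7 CPM in the Control libraries (log2 fold change -0.68 ± 0.19 SE, edgeR adjusted p = 0.0606). Its groups did not overlap, and it was the lowest fold change of the 78. In the GENCODE M21 annotation 88.0% of its exonic bases are shared with Gm42688 on the same strand, so its reads could be split between the 2 genes, and some of its deposited counts were fractional. Mrpl14, which faces the small subunit and is the docking site of the assembly factor Malsu1, had 16.0, 14.1 and 17.9 CPM in the PTN libraries and 27.3, 20.3 and 22.9 CPM in the Control libraries (log2 fold change -0.56 ± 0.18 SE, edgeR adjusted p = 0.0927). Mrpl24, whose bacterial counterpart starts large-subunit assembly, had 38.2, 42.8 and 44.7 CPM in the PTN libraries and 60.2, 57.3 and 50.8 CPM in the Control libraries (-0.42 ± 0.14 SE, edgeR adjusted p = 0.105). In both genes the groups did not overlap, and Control 1 was the highest library.

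The stalk protein Mrpl12, which recruits translation factors to the ribosome and also binds the mitochondrial RNA polymerase, was more scattered. It had 91.6, 72.1 and 121 CPM in the PTN libraries and 152, 116 and 117 CPM in the Control libraries. PTN 3 lay among the Control libraries, so the groups overlapped (log2 fold change -0.44 ± 0.21 SE, edgeR adjusted p = 0.220). Mrpl57, a small protein with no bacterial counterpart, had 13.2, 11.1 and 17.4 CPM in the PTN libraries and 23.4, 18.6 and 19.0 CPM in the Control libraries. Its groups did not overlap, though PTN 3 came near the lower Control libraries (-0.55 ± 0.21 SE, edgeR adjusted p = 0.136). Mrpl41, also found only in mitochondria, had 29.5, 21.6 and 34.1 CPM in the PTN libraries and 33.9, 32.4 and 29.2 CPM in the Control libraries, with full overlap (-0.17 ± 0.19 SE, edgeR adjusted p = 0.578).

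The large-subunit genes with the highest levels behaved likewise. Mrpl17, the counterpart of a bacterial protein beside the exit tunnel, had 88.0, 67.6 and 117 CPM in the PTN libraries and 126, 106 and 110 CPM in the Control libraries (log2 fold change -0.33 ± 0.20 SE, edgeR adjusted p = 0.314). Mrpl42, which the table's terms place in both subunits, had 65.3, 53.6 and 54.1 CPM in the PTN libraries and 64.0, 79.7 and 66.7 CPM in the Control libraries (-0.28 ± 0.15 SE, edgeR adjusted p = 0.267). Both overlapped between groups, by PTN 3 in Mrpl17 and by PTN 1 in Mrpl42.

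A few large-subunit genes read the other way, none of them past the test. Mrpl50, a mitochondria-specific protein, had 47.1, 40.0 and 33.5 CPM in the PTN libraries and 24.7, 35.3 and 29.2 CPM in the Control libraries (log2 fold change 0.44 ± 0.19 SE, edgeR adjusted p = 0.182). Mrpl1, a protein of the mobile stalk by which spent transfer RNA leaves, had 23.1, 21.8 and 18.6 CPM in the PTN libraries and 11.4, 21.1 and 16.5 CPM in the Control libraries (0.37 ± 0.23 SE, edgeR adjusted p = 0.315). Mrpl47, the counterpart of a bacterial protein at the tunnel exit, had 22.9, 17.8 and 21.8 CPM in the PTN libraries and 13.4, 19.2 and 17.5 CPM in the Control libraries (0.32 ± 0.19 SE, edgeR adjusted p = 0.297). In all 3 the groups overlapped, PTN 1 was the highest library and Control 1 the lowest. Mrpl32, which is cleaved by the m-AAA protease before it joins the ribosome, had 27.8, 20.7 and 18.9 CPM in the PTN libraries and 20.03, 24.0 and 19.6 CPM in the Control libraries (0.09 ± 0.19 SE, edgeR adjusted p = 0.784), the PTN libraries spanning the Control ones.

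In the small subunit 0 of 29 genes passed edgeR's test or DESeq2's, 5 read lower and 0 higher at an unadjusted edgeR p under 0.05, and the lowest p belonged to Mrps34, a mitochondria-specific protein of its lower body whose loss destabilises the subunit. It had 29.9, 32.0 and 44.0 CPM in the PTN libraries and 65.3, 46.0 and 49.7 CPM in the Control libraries (log2 fold change -0.60 ± 0.20 SE, edgeR adjusted p = 0.104). Its groups did not overlap, though PTN 3 lay just under Control 2. In GENCODE M21 63.4% of its exonic bases are shared with Mapk8ip3 on the opposite strand and 37.0% with Nme3 on the same strand, and the sources used here do not give the strand setting of the authors' counting.

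Mrps11 and Mrps7, of the platform and the head of the small subunit, had similar fold changes. Mrps11 had 22.4, 20.6 and 28.7 CPM in the PTN libraries and 41.1, 31.9 and 31.1 CPM in the Control libraries (log2 fold change -0.54 ± 0.19 SE, edgeR adjusted p = 0.113). Mrps7 had 55.5, 51.0 and 75.2 CPM in the PTN libraries and 97.4, 77.6 and 77.6 CPM in the Control libraries (-0.48 ± 0.19 SE, edgeR adjusted p = 0.149). In both, PTN 3 came close to Control 2 and Control 3 without reaching them, and Control 1 stood above the rest. Mrps25, found only in mitochondria, had 69.0, 61.9 and 62.4 CPM in the PTN libraries and 87.6, 80.5 and 79.3 CPM in the Control libraries, an even gap across libraries (-0.36 ± 0.13 SE, edgeR adjusted p = 0.135). Of its exonic bases 69.8% are shared with Nr2c2 on the opposite strand in GENCODE M21.

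Mrps36, the gene now placed in the oxoglutarate dehydrogenase complex, had 21.3, 14.0 and 20.8 CPM in the PTN libraries and 29.9, 25.4 and 23.8 CPM in the Control libraries (log2 fold change -0.49 ± 0.20 SE, edgeR adjusted p = 0.162). Its groups did not overlap. Mrps12, part of the decoding centre, had 16.5, 12.3 and 19.5 CPM in the PTN libraries and 22.9, 18.7 and 22.3 CPM in the Control libraries (-0.41 ± 0.20 SE, edgeR adjusted p = 0.228). PTN 3 overlapped the Control libraries there. Mrps26, a mitochondria-specific protein, had 19.7, 17.03 and 25.1 CPM in the PTN libraries and 31.6, 23.7 and 28.1 CPM in the Control libraries (-0.43 ± 0.19 SE, edgeR adjusted p = 0.192), again with PTN 3 above Control 2. Mrps16, the counterpart of a bacterial small-subunit protein needed for assembly, had 19.8, 13.8 and 19.2 CPM in the PTN libraries and 25.5, 21.5 and 21.5 CPM in the Control libraries (-0.37 ± 0.19 SE, edgeR adjusted p = 0.229), and there the groups did not overlap.

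The remaining small-subunit genes named by rule overlapped between groups. Mrps21 had 30.8, 24.0 and 25.2 CPM in the PTN libraries and 40.6, 30.8 and 30.7 CPM in the Control libraries (log2 fold change -0.35 ± 0.18 SE, edgeR adjusted p = 0.235). Mrps18a had 38.1, 38.5 and 46.2 CPM in the PTN libraries and 57.2, 44.3 and 43.4 CPM in the Control libraries (-0.24 ± 0.17 SE, edgeR adjusted p = 0.361). Mrps30 had 36.6, 34.3 and 45.0 CPM in the PTN libraries and 48.4, 42.6 and 46.9 CPM in the Control libraries (-0.25 ± 0.15 SE, edgeR adjusted p = 0.314). In these the overlap came from PTN 1 in Mrps21 and from PTN 3 in Mrps18a and Mrps30.

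On the positive side of the small subunit the differences were small beside their errors. Mrps18b had 25.3, 20.9 and 33.7 CPM in the PTN libraries and 28.8, 20.5 and 21.4 CPM in the Control libraries (log2 fold change 0.17 ± 0.22 SE, edgeR adjusted p = 0.613). Mrps22, a mitochondria-specific protein, had 41.8, 39.2 and 41.2 CPM in the PTN libraries and 34.7, 42.6 and 37.8 CPM in the Control libraries (0.09 ± 0.14 SE, edgeR adjusted p = 0.704). PTN and Control libraries were interleaved in both. Mrps2 had 42.7, 44.7 and 55.4 CPM in the PTN libraries and 49.2, 43.3 and 45.7 CPM in the Control libraries (0.05 ± 0.15 SE, edgeR adjusted p = 0.854). Mrps5, whose bacterial counterpart lines the messenger RNA entry channel, had 76.1, 68.8 and 81.5 CPM in the PTN libraries and 80.6, 71.7 and 69.6 CPM in the Control libraries (0.03 ± 0.14 SE, edgeR adjusted p = 0.904). In both genes PTN 3 was the highest library and the rest were mixed.

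The gene of highest level, Mrps6, had the widest standard error of the 78. It had 259, 124 and 291 CPM in the PTN libraries and 257, 218 and 233 CPM in the Control libraries (log2 fold change -0.07 ± 0.28 SE, edgeR adjusted p = 0.881). PTN 2 was far below the other 5 libraries, and without it the log2 fold change was 0.22. The gene shares 10.4% of its exonic bases with Slc5a3 and 19.9% with Gm49711 in GENCODE M21, and some of its counts were fractional.

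The libraries of a group differed among themselves. PTN 2 was the lowest library for 56 of the 78 genes and PTN 1 for 12, whereas Control 1 was the highest for 52. PTN 1, PTN 2 and PTN 3 lay below every Control library in 58, 68 and 38 genes. PTN 2, PTN 1 and PTN 3 followed in that order from low to high in the medians of each subunit, with Control 1 at the top. For the large subunit the median log2 ratio to the mean of the Control libraries was -0.32 in PTN 1, -0.44 in PTN 2 and -0.12 in PTN 3, and 0.14, -0.05 and -0.07 in Control 1, Control 2 and Control 3. For the small subunit it was -0.26, -0.51 and -0.13 in the PTN libraries, and 0.12, -0.09 and -0.06 in the Control libraries. PTN 3 was thus the PTN library nearest to Control, and Control 1 stood above the other Control libraries. Summed over the subunit, large-subunit genes took 1945, 1729 and 2255 CPM in the PTN libraries and 2621, 2331 and 2278 CPM in the Control libraries. Small-subunit genes took 1227, 996 and 1375 CPM in the PTN libraries and 1515, 1321 and 1344 CPM in the Control libraries. The large-subunit sums did not overlap between groups, and the small-subunit sums did, through PTN 3. The 11 genes called lower without PTN 3 were Mrpl2, Mrpl4, Mrpl12, Mrpl28, Mrpl36, Mrpl53, Mrpl57, Mrps7, Mrps11, Mrps27 and Mrps34.

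**Figure D2:**
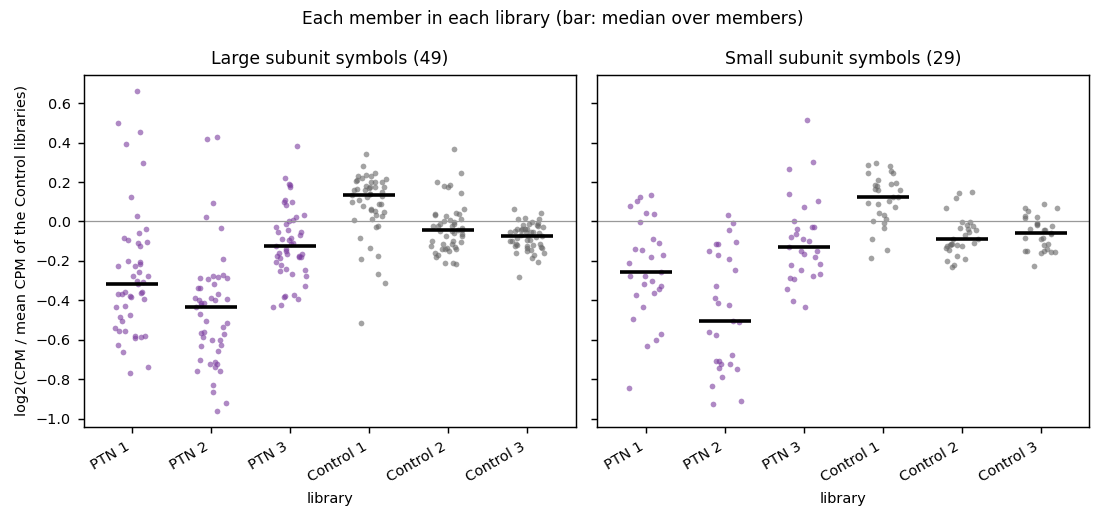
Each point is a gene in a library, as log2 of its CPM over the mean CPM of the Control libraries, with large-subunit symbols on the left and small-subunit symbols on the right. Bars are medians over genes. The PTN 2 bars are lowest (-0.44 and -0.51), and those of PTN 3 (-0.12 and -0.13) lie nearest to the Control bars.

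Levels between genes were compared on FPKM (fragments per kilobase, scaled by library depth), the scale that accounts for gene length. The 78 genes had a median FPKM of 34.4, beside 9.95 for all tested genes, and their means over all libraries ran from 5.57 to 272 FPKM. In 71 genes every library was above 10 FPKM, 55 had a mean between 20 and 60 FPKM, and 14 had a mean below 20 FPKM. In the order of mean levels, neighbours overlapped in their range over the 6 libraries in each of the 77 pairs. Mrps6, the counterpart of a bacterial small-subunit protein of the platform, was highest, at 265 ± 104 FPKM in PTN libraries and 280 ± 24.9 FPKM in Control libraries (SD, n = 3 each). Mrpl17 followed, at 99.7 ± 33.4 FPKM in PTN libraries and 131 ± 16.0 FPKM in Control libraries. Mrpl47 had the lowest mean over all 6 libraries, at 6.18 ± 0.76 FPKM in PTN libraries and 4.97 ± 0.85 FPKM in Control libraries. Mrps26, the lowest of the small subunit on that mean and below Mrpl47 in PTN libraries, had 4.81 ± 0.95 FPKM in PTN libraries and 6.50 ± 0.96 FPKM in Control libraries.

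The ratio of the subunits' summed FPKM, large over small, was 1.60, 1.82 and 1.66 in the PTN libraries and 1.79, 1.82 and 1.74 in the Control libraries. The groups overlapped, with means of 1.69 in PTN and 1.78 in Control libraries, so no shift of the subunits against each other was detectable. Mrps6 weighs on that ratio. Without the highest gene of each subunit it averaged 2.13 in PTN and 2.18 in Control libraries, and the ratio of median FPKM averaged 1.26 in PTN and 1.25 in Control libraries. Counts and FPKM came apart in Mrps17. It was the only gene whose length, as implied by deposited counts and FPKM, differed by over 1.1 times between group means with no overlap of libraries. That length was 1263 bases in PTN and 1035 bases in Control libraries (group means). Its log2 difference was -0.39 on FPKM and its log2 fold change -0.11 on counts.

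**Figure D3:**
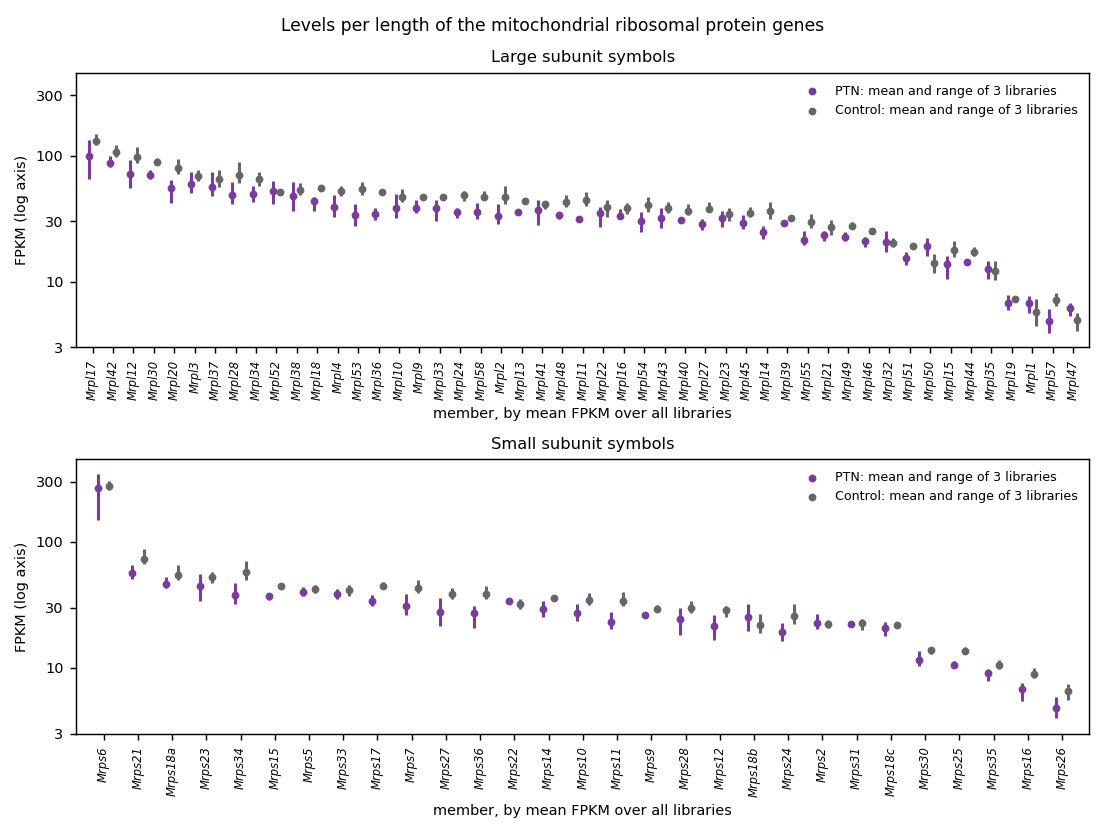
FPKM (log axis) of every gene, in order of its mean, for large-subunit symbols above and small-subunit symbols below. Points are the mean and lines the range of 3 libraries, PTN left of Control. Most genes lie between 20 and 60 FPKM, and Mrps6 stands above them in both groups.

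Gene length moved with the fold change over all genes, and mitochondrial ribosomal protein genes are short. Their median length, as implied by deposited counts and FPKM, was 1117 bases beside 2823 for all tested genes, and 50 of the 78 fell in the shortest eighth of tested genes. In that eighth the median log2 fold change was -0.32 for the 50 genes and -0.24 for all genes, and groups did not overlap, PTN being lower, in 42.0% of these genes and 33.9% of all genes. The longest eighth of all genes had a median of 0.31. Among the shortest genes the family thus lay a little further down than genes of its size. Spearman's rho between fold change and length, as a description across genes, was 0.22 over the 78 genes and 0.32 over all genes with a length. The 30 genes shorter than 1000 bases had a median of -0.34, beside -0.29 for all genes that short. The 32 genes of 1000 to 2000 bases had a median of -0.26, beside -0.13 for all genes of that size. The 16 longer ones had a median of -0.22 with 11 negative, beside 0.12 for all genes over 2000 bases. The median of the longer members was thus negative where that of all genes over 2000 bases was positive. That open bin also holds far longer genes than most of these members. In narrower ranges, members of 1815 to 2305 bases (5), 2305 to 2823 bases (2) and 2824 to 3405 bases (5) had medians of 0.03, -0.32 and -0.25. All genes of those ranges had -0.06, 0.02 and 0.05. The medians of short members and of all short genes were close. This comparison of medians is descriptive and was given no test.

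The length trend differed between libraries and ordered them as the large-subunit medians did. The median deviation of log2 CPM from the gene's mean over libraries, in the longest minus the shortest eighth, was 0.37, 0.40 and 0.02 in PTN 1, PTN 2 and PTN 3, and -0.55, -0.15 and -0.09 in Control 1, Control 2 and Control 3. Control 1 and PTN 2 were again the extremes, and PTN 3 the PTN library nearest to Control. With the trend on length removed in each library, the median log2 fold change was -0.10 for the large and -0.04 for the small subunit, 55 of 78 genes were negative, and Mrps25 was the only one called (log2 fold change -0.61, edgeR adjusted p = 0.0471). With lengths from GENCODE M21 in its place, the medians were -0.17 and -0.21, 63 of 78 were negative and 0 were called. What produced the length trend was not tested.

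**Figure D4:**
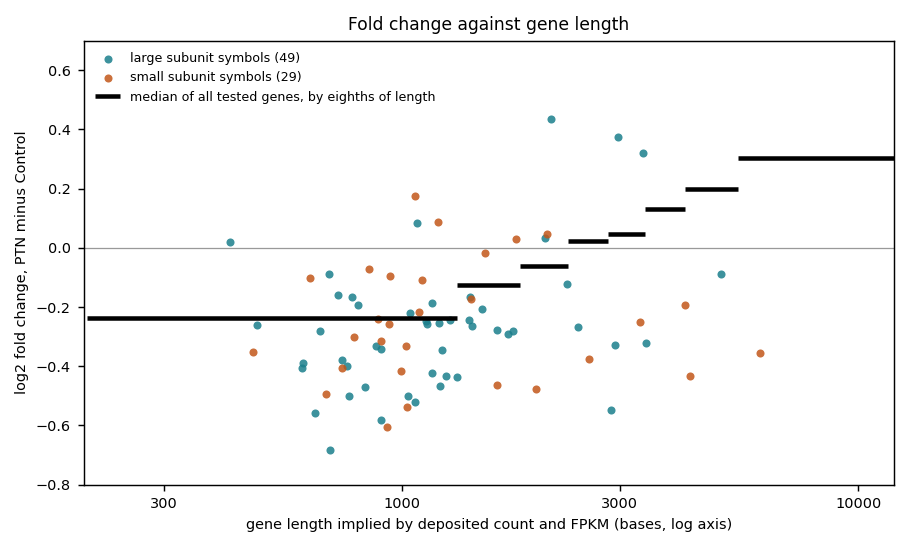
The log2 fold change (PTN minus Control) of each gene against its length implied by deposited counts and FPKM (log axis), with the median of all tested genes in each eighth of length as a black bar. The bars climb from -0.24 to 0.31 (the last one runs past the axis), and 50 of the 78 genes lie within the shortest eighth.

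Other parts of mitochondrial gene expression were read from lists. Proteins of the mitochondrial ribosome that carry other symbols (5 tested) had a median log2 fold change of -0.40 with 4 negative and 0 called, the lowest p being that of Aurkaip1 (-0.55 ± 0.18 SE, edgeR adjusted p = 0.0925). Assembly factors (26 tested) had a median of -0.25 with 22 negative and 0 called, led by the pseudouridine synthase family member Rpusd3 (-0.70 ± 0.24 SE, edgeR adjusted p = 0.111). Translation factors (15 tested) had a median of -0.16 with 10 negative and 0 called, led by the elongation factor Tufm (-0.49 ± 0.19 SE, edgeR adjusted p = 0.147). These 3 lists lay on the same side as the ribosomal proteins without any gene passing the test. With the length trend removed their medians were -0.27, -0.20 and -0.14. At an unadjusted p under 0.05 there were 3, 7 and 4 lower and 0 higher in them, against 12.2% and 14.7% of all tested genes. Without PTN 3 the test called 2, 3 and 1 of their genes lower. Calls rose in that setting in other lists too, as given further on for oxidative phosphorylation and mitochondrial DNA transcripts.

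Of 17 mitochondrial aminoacyl-tRNA synthetases, which charge transfer RNAs for that ribosome, 2 were called lower and 0 higher. Over all tested genes 3.06% were called lower and 4.93% higher. The list median was -0.16, and -0.15 with the length trend removed. Tars2, the threonyl enzyme, had 19.8, 20.4 and 27.9 CPM in the PTN libraries and 39.7, 34.4 and 36.6 CPM in the Control libraries (log2 fold change -0.70 ± 0.18 SE, edgeR adjusted p = 0.0457). Its groups did not overlap. Its call was lost without PTN 1 (adjusted p = 0.142), PTN 2 (0.102), Control 1 (0.129), Control 2 (0.0911) or Control 3 (0.136). With the length trend removed it was still called. The call was lost with limma on log2(FPKM + 0.1) (adjusted p = 0.0603) or log2(FPKM + 1) (0.0642), and in edgeR with a replicate block (0.0907).

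Genes of mitochondrial DNA transcription and maintenance (10 tested) had a median of -0.00, 5 being negative and 0 called, with the DNA polymerase Polg of lowest p (-0.47 ± 0.20 SE, edgeR adjusted p = 0.171). Regulators of mitochondrial biogenesis (10 tested) had a median of 0.43 (0.33 with the length trend removed) with 8 positive. The coactivator Ppargc1a was the only one called, as higher, where 4.93% of all tested genes were called higher. It had 64.1, 56.4 and 52.7 CPM in the PTN libraries and 30.2, 40.1 and 37.7 CPM in the Control libraries, with no overlap (0.68 ± 0.16 SE, edgeR adjusted p = 0.0368). Its call was lost without PTN 1 (adjusted p = 0.118), PTN 2 (0.0630), Control 1 (0.131), Control 2 (0.0902) or Control 3 (0.144), and with the length trend removed (0.0512).

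The messenger RNAs that the mitochondrial ribosome reads, encoded by mitochondrial DNA (13 tested), had a median of 0.36 (0.65 with the length trend removed) with 12 positive and 0 called, mt-Atp8 having the lowest p (log2 fold change 0.95 ± 0.46 SE, edgeR adjusted p = 0.217). They took 8.12%, 8.10% and 3.97% of the counts in the PTN libraries and 4.47%, 7.47% and 5.76% in the Control libraries. PTN 3 held the least and Control 1 the next, so these transcripts were high in the PTN libraries where the ribosomal protein genes were low, and the groups overlapped. Nuclear genes of oxidative phosphorylation (42 tested) had a median of -0.32 with 40 negative and 0 called, the lowest p being that of Ndufs7, a complex I subunit (-0.57 ± 0.17 SE, edgeR adjusted p = 0.0836). That list is also short, with a median length of 850 bases, and its median was -0.13 with the length trend removed. Without PTN 3 the test called 13 of these 42 genes lower and 4 of the 13 mitochondrial DNA transcripts higher. Without any other single library it called 0 in both lists.

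**Figure D5:**
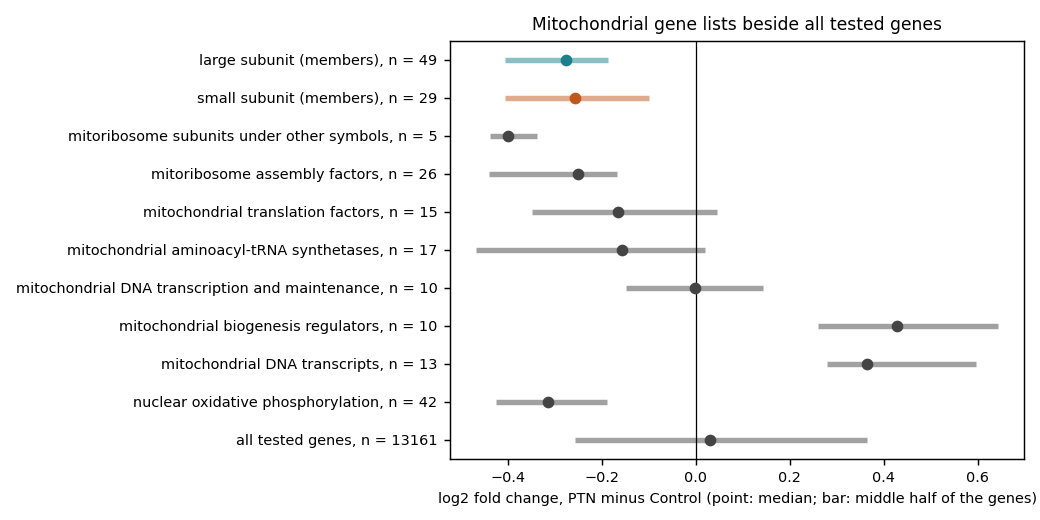
The median log2 fold change (PTN minus Control, point) and the range of the middle of each list, from its lower to its upper quartile (bar), with the number of genes tested. Nuclear lists of the mitochondrial ribosome and of oxidative phosphorylation lie left of 0, while regulators of biogenesis (0.43) and transcripts of mitochondrial DNA (0.36) lie right of it.

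Library totals lay between 19267764 and 25975205 counts for PTN and between 21268297 and 26341745 for Control, and the 78 genes had from 217 to 6668 counts per library, so none was near the counting floor. Neural stem and progenitor markers were tested in 12 of 12 cases, with Vim, an intermediate filament gene, called higher. Their median log2 fold change was 0.08, with 8 positive and 4 negative. Progenitor markers summed to 8427 to 9931 CPM in PTN and 6554 to 7502 CPM in Control libraries, without overlap. Vim alone took 4978 to 5439 CPM of that sum in PTN and 3381 to 3527 CPM in Control libraries. Msi1 had every PTN library below every Control library (log2 fold change -0.57, not called). For the marker calls given here, the shares over all tested genes were 3.06% called lower and 4.93% higher. Among markers of other cells, the sums of the astrocyte and fibroblast lists did not overlap between groups, and those of the other lists did. Astrocyte markers, of which 3 of 8 were called lower (Aldoc, Gfap and Gjb6), summed to 4517 to 7508 CPM in PTN and 9767 to 9849 CPM in Control libraries. The list was not uniform, since Slc1a3 and S100b had every PTN library above every Control library (log2 fold changes 0.37 and 0.65, neither called). Of the oligodendrocyte lineage markers 2 of 7 tested were called lower. Fibroblast and meninges markers (2 called lower and 1 higher of 6) summed to 36.3 to 48.5 CPM in PTN and 96.2 to 119 CPM in Control libraries. That sum holds Pdgfra, which the oligodendrocyte lineage list also holds, at 11.3 to 36.4 CPM in PTN and 81.6 to 103 CPM in Control libraries. Without Pdgfra the sums overlapped, at 12.1 to 25.02 CPM in PTN and 12.7 to 16.8 CPM in Control libraries. Endothelial and mural markers (1 of 4 called lower) summed to 8.85 to 12.02 CPM in PTN and 11.3 to 14.1 CPM in Control libraries. Microglia markers, with 1 of 8 tested, summed to 2.81 to 3.08 CPM in PTN and 2.07 to 3.94 CPM in Control libraries, and 0 of 8 neuron markers were called. No marker was at 0 in all libraries. Several of these calls turned on single libraries, while 1 endothelial or mural marker was called lower whichever library was left out. Without PTN 1 or without any single Control library, 1 astrocyte marker was called lower and 0 progenitor markers were called higher, and without PTN 2 there were 4 and 2. Without PTN 1, 0 oligodendrocyte lineage and 0 fibroblast markers were called. PTN 2, lowest for the ribosomal protein genes, had the highest astrocyte sum of the PTN libraries. The part of cell makeup in the fold changes of the ribosomal protein genes was not tested.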

How the data were processed

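RNA of 6 libraries was measured, 3 for PTN and 3 for Control. Per the labels' protocols, RNA was isolated on RNeasy columns and 1.3 ug of total RNA went into a SMARTER mRNA library kit. The authors deposited a table with an expected count (an estimate of the reads of a gene, with no scaling across libraries) and an FPKM value (per kilobase of gene and scaled by depth) for each gene and library, per the file headers. The sources used here give no aligner, counting program, strand setting, genome build or annotation, so no gene coordinates are printed beyond those of the RefSeq promoter windows.

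Expected counts were rounded and genes were kept by filterByExpr (13161 of 22322). Libraries were scaled by TMM (factors 0.993 to 1.01) and compared with edgeR's quasi-likelihood test (R 4.3.3 with edgeR 4.0.16), as PTN minus Control without covariates. Benjamini-Hochberg adjustment ran over all tested genes, and an adjusted p under 0.05 was called. CPM values are scaled by TMM. Totals of 19267764 to 26341745 counts make 217 counts the lowest value of any member. Gene length was the count divided by FPKM and library total, as a median over libraries. To remove the length trend, a lowess curve (span 0.3) of each library's deviation on log2 length entered as an offset.

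The rule for values in every library took the called members, the 4 of smallest p in each subunit and direction, the 3 highest and 2 lowest in FPKM per subunit, and Mrpl12, Mrps12, Mrpl41, Mrps30 and Mrps36, giving 29 genes. For the other lists it took up to 3 called genes, or the gene of smallest p. For 1 aminoacyl-tRNA synthetase that this rule takes, values are not reported here. Members, lists and motifs were chosen with earlier results of these data known. Exonic overlaps come from GENCODE M21, matched by gene identifier. Alternatives were other scalings and filters, DESeq2 1.42.0, limma 3.58.1 on counts (voom) and on log2(FPKM + 0.1) or log2(FPKM + 1), a replicate block, and leaving out each library. Chosen after seeing the data were the GENCODE M21 lengths and the subunit reassignment.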

Additional observations from a re-analysis of the deposited data

How the results depend on the processing

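Medians of both subunits stayed negative under every alternative run. They moved by more than the spread only with the length trend removed (-0.10 large, -0.042 small). Leaving out each library gave -0.40 to -0.22 for the large and -0.34 to -0.19 for the small subunit. All tested genes gave 1052 calls, DESeq2's Wald test 1908, an adjusted p under 0.1 1913, the replicate block 726, and leaving out each library 331 to 2177. Members called were 2 (Mrpl36 and Mrpl53) under upper-quartile scaling, DESeq2 and limma on FPKM with either pseudocount, 3 at an adjusted p under 0.1, 0 under the replicate block and with GENCODE M21 lengths, and 0 to 11 when a library was left out. Whether the replicate numbers pair the samples is not in the labels. Correlations of same-numbered deviations were -0.59, 0.36 and -0.19, and only number 2 had its best match in its own number. With 3 libraries per group these values cannot settle it. Under the replicate block the medians were -0.28 and -0.26. The ratio of large to small subunit was 1.26 in PTN and 1.25 in Control libraries on median FPKM, and 2.13 and 2.18 without the highest gene of each subunit. It ranged over 1.63 to 1.74 in PTN and 1.76 to 1.80 in Control libraries when a library was left out. Of 29 named members 20 never changed sign. The others did so at these log2 values. With the length trend removed, Mrpl41 gave 0.092, Mrpl42 0.0047, Mrps18a 0.015 and Mrps6 0.16. With GENCODE M21 lengths, Mrpl41 gave 0.11, Mrps5 -0.077 and Mrps6 0.11. Mrps5 gave -0.018 under upper-quartile scaling, and -0.086 and -0.084 with limma on FPKM. When a library was left out, Mrpl32 ranged over -0.098 to 0.196, Mrps18b over -0.028 to 0.32, Mrps2 over -0.077 to 0.12, Mrps22 over -0.0086 to 0.13, Mrps5 over -0.055 to 0.091 and Mrps6 over -0.30 to 0.22. The causes were not tested. Upper-quartile scaling moved the median of all genes to -0.01, against 0.03.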
